A study of Mus musculus with 24 samples.

Results

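Transcripts of 4 genes for secreted signals were followed in mouse kidney epithelial cells: Adm and Nppb, which encode vasodilator peptides, Edn1, which encodes a vasoconstrictor peptide, and Vegfa, which encodes a growth factor of blood vessels. The members are the rows of the series table that carry these 4 gene names, 4 of 12224 rows. They were proposed with earlier results of these data known, and the agonist effect in WT cells is taken here as the contrast that chose them. For the members, that contrast and every difference that contains its agonist libraries or its fold change are therefore given as descriptions with no test.

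Sequencing of poly(A) RNA was carried out on mpkCCD cells, an epithelial line derived from the cortical collecting duct. Each of the 4 groups held 6 libraries: KO cells given cpd1324, KO cells given vehicle, WT cells given cpd1324 and WT cells given vehicle. KO stands for a knockout of Gpr39, a receptor that couples to G proteins and responds to zinc, and cpd1324 is an agonist of that receptor. All 4 groups grew on inserts for 9 days without the vasopressin analogue dDAVP, then spent 24 h in a simple medium, and all received 10 µM ZnCl2 for the last 2 h. The agonist groups also received 1 µM cpd1324 and the vehicle groups 0.1% DMSO, from the basolateral side. The labels expand WT as cells without transformation and do not give the number of KO clones, the edited part of Gpr39, or whether the 6 libraries of a group were separate cultures. Where they were not, the p-values below measure only the spread between these libraries, which may be technical.

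Adrenomedullin, the product of Adm, relaxes vessels through the receptor Calcrl paired with the accessory proteins Ramp2 or Ramp3, and Ackr3 can remove it. Endothelin-1, from Edn1, constricts vessels through Ednra and Ednrb, and in the collecting duct it is known as a local inhibitor of sodium and water reabsorption. B-type natriuretic peptide, from Nppb, is best known from cardiac muscle; it acts through the guanylyl cyclase receptor Npr1, and Npr3 clears it. VEGF-A drives endothelial growth through Flt1 and Kdr with the co-receptors Nrp1 and Nrp2, and its gene is a classical target of the hypoxia-inducible factors.

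Because the members were chosen for a shared response, the 250 bases before the start of each gene are shown, 5′ to 3′ on the strand of the gene, from RefSeq windows on GRCm38.p6, an older build than the GRCm39 named in the submitters' processing notes. Capitals mark every match, on either strand, to any of the motifs listed after the sequences.
Adm, chr7:110627407-110627656, + strand: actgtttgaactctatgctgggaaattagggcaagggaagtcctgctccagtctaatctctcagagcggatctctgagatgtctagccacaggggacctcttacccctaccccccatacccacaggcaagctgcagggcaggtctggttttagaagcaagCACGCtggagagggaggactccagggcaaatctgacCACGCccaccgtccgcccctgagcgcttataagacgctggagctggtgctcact
Edn1, chr13:42301226-42301475, + strand: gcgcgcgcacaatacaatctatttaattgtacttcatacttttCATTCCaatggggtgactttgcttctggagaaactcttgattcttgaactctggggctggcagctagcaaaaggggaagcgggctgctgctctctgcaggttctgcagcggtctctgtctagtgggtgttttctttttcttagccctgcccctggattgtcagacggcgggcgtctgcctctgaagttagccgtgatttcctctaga
Nppb, chr4:147985650-147985899, + strand: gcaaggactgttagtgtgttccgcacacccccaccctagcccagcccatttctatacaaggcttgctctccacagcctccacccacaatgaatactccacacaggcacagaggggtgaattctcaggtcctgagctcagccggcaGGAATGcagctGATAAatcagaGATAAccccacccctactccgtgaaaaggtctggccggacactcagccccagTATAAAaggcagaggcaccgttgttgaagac
Vegfa, chr17:46032378-46032627, − strand: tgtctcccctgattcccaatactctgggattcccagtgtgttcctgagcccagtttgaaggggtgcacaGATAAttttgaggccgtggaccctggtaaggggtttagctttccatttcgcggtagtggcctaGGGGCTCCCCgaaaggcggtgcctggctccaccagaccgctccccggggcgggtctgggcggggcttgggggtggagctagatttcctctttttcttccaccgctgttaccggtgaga

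The motifs searched on both strands were AP-1, spelled TGANTCA, the cyclic AMP response element, TGACGTCA, and its core, TGACG. The core of the hypoxia response element was read as ACGTG and also as GCGTG. GATA factors were searched with the letters GATAA, the muscle M-CAT element with CATTCC, EGR with GCGNGGGCG and the TATA box with the letters TATAAA. The NF-kB site and CArG box were searched by their usual consensus. The search covered windows of 300 bases that ran on to 50 bases past the start, and positions count from the start, with −1 the base just before it. Adm held the hypoxia core at −90 and −54 and no other motif. Edn1 held M-CAT at −207 and, past the start and so not printed, GATA at 9 and the hypoxia core at 22. Nppb held GATA at −94 and −83, M-CAT at −105 and a TATA box at −31. Vegfa held GATA at −181 and an NF-kB site at −118. None of these matches overlapped another. Across all 32851 windows in the table, the hypoxia core was found in 43.8%, GATA in 25.4%, M-CAT in 14.7%, the TATA box in 13.6% and the NF-kB site in 8.46%. AP-1 was found in 7.81% of all windows, the cyclic AMP element in 1.79%, its core in 20.8%, EGR in 5.55% and the CArG box in 1.63%, and the 4 windows above held none of these. No motif occurred in all 4 windows. A second Vegfa window in the table, at chr17:46025114-46025413 on the − strand, held a cyclic AMP core at −209 that overlapped a hypoxia core at −211, and a further hypoxia core at −218. These matches are letters in a window, not sites of binding.

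Levels are given in scaled units, the deposited signal per gene length multiplied by a constant, so that levels of different genes can be set side by side. The whole reads recovered from the signal came to 29.8 to 51.9 M per library. Gpr39, the targeted gene, ranged from 8.20 to 10.6 scaled units in KO cells with agonist, 8.52 to 10.4 in KO cells under vehicle, 27.1 to 31.1 in WT cells with agonist and 20.3 to 24.5 in WT cells under vehicle. The KO level under vehicle was 43.4% of the WT level (log2 change −1.16 ± 0.06, adjusted p = 3.37e-14 in limma), and reads from outside the edited part cannot be told apart from intact transcript here. Of 9 epithelial markers the 7 analysed, Cdh1, Epcam, Krt18, Krt19, Cldn7, Tjp1 and Ocln, summed to 4247 to 4880 scaled units in KO cells with agonist, 4374 to 4903 in KO cells under vehicle, 9439 to 12264 in WT cells with agonist and 4623 to 5255 in WT cells under vehicle. Of 13 principal cell markers 10 were analysed, among them Aqp2, Avpr2 and Scnn1a, and they summed to 851 to 1195, 1073 to 1219, 650 to 814 and 774 to 981 scaled units in the same 4 groups. Of 12 endothelial markers only Eng and Egfl7 were analysed, and their sum stayed between 64.4 and 92.6 scaled units in all libraries. Myl2, the 1 cardiac muscle marker analysed of 9, stood at no more than 2.03 scaled units in any library, and Col1a1, the 1 fibroblast and mural marker of 9, at no more than 3.27. Lrp2, the 1 proximal tubule marker of 8, summed to 4.66 to 8.91, 4.49 to 6.77, 11.0 to 16.4 and 8.06 to 10.6 in the order above. The 4 intercalated cell markers analysed of 8 summed to 66.6 to 99.8 over all libraries. The part of these markers in the results below was not tested.

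The library totals on the deposited scale were not equal. WT cells with agonist had totals 1.18 times those of WT cells under vehicle, while the ratio was 0.976 between agonist and vehicle in KO cells and 0.992 between KO and WT cells under vehicle. When each library was scaled to the same total, the median log2 change of all genes with agonist in WT cells moved to −0.24, against −0.01 as deposited. The split of calls there moved to 1433 higher and 6944 lower, against 3302 higher and 3303 lower. Every agonist effect in WT cells below is relative to that choice, and the value under the same total is given where it differs most. Which scaling is closer to the cells was not tested.

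In WT cells all 4 genes stood higher with agonist than under vehicle, by very different amounts, with no library of 1 group inside the range of the other. The same separation upward held for 19.8% of the 11557 rows tested, while 28.6% of rows were called higher and 28.6% lower at an adjusted p below 0.05 in limma. Because the members were chosen on this contrast, nothing is read from their share.

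Adm ran from 163 to 236 scaled units with agonist, with a median of 193, and from 9.03 to 15.5 under vehicle, with a median of 12.9. The lowest agonist library, number 4, lay far above the highest vehicle library, number 2. The means were 195 ± 26.3 with agonist and 12.5 ± 2.47 under vehicle (SD, n = 6 each), a ratio of means of 15.5. On the scale of log2(scaled units + 0.5), used for all fold changes here, the difference was 3.92 ± 0.16 (SE). Counted as reads, the agonist libraries held 1908 to 3227 Adm reads each and the vehicle libraries 146 to 234. Adm stood at the 91.0 percentile of the 11557 rows tested with agonist and at the 26.3 percentile under vehicle.

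Edn1 lay between 70.5 and 95.2 scaled units with agonist, with a median of 83.2, and between 19.4 and 23.5 under vehicle, with a median of 22.0. Vehicle libraries were tightly grouped, with a coefficient of variation of 7.68%. The mean was 82.2 ± 8.34 with agonist and 21.6 ± 1.66 under vehicle (SD, n = 6 each), and the log2 difference was 1.90 ± 0.07 (SE), or 1.66 under the same total per library.

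Nppb was read 46 to 94 times per library with agonist, with a median of 78, while 5 of the 6 vehicle libraries held no read and the remaining library, number 2, held 1. It is therefore near detection under vehicle, which here means a median of fewer than 10 reads per library. In scaled units the agonist libraries ran from 7.45 to 16.4 with a median of 12.3, the widest relative spread of the 4 genes with agonist (coefficient of variation 27.9%). The agonist group held 431 reads in all and the vehicle group 1. The ratio of these sums, each divided by the deposited library factors, was 517 with a counting interval of 92.4 to 20482 (95%, counting error only). The fitted log2 difference of 4.54 ± 0.20 (SE) depends on the constant added before the log: it was 6.64 with 0.1 and 2.76 with 2. The size of the fold is therefore poorly known.

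Vegfa, the most abundant of the 4 under vehicle, ranged from 61.2 to 76.7 scaled units with agonist (median 67.2) and from 43.3 to 55.1 under vehicle (median 52.2). The groups did not overlap, but the lowest agonist and the highest vehicle libraries lay close together. Its mean was 67.9 ± 5.59 with agonist and 50.9 ± 4.11 under vehicle (SD, n = 6 each), a log2 difference of 0.41 ± 0.06 (SE). Under the same total per library the difference was 0.17 and the groups overlapped: the lowest agonist library stood at 55.8 and the highest vehicle library at 58.2. Of the 4 genes Vegfa thus had the smallest agonist effect in WT cells. The same scaling lowered the log2 effect of Edn1 by a similar amount, so the shift of Vegfa was large only beside its small effect.

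**Figure D1:**
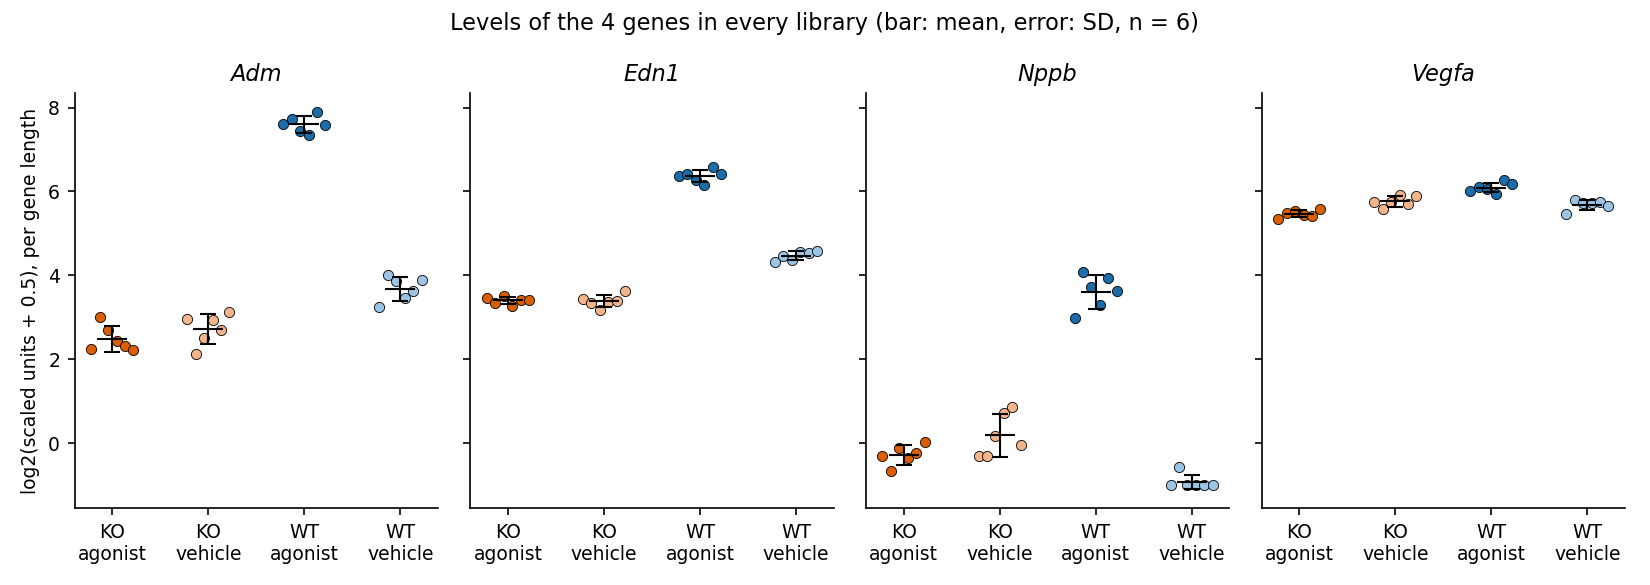
Each point is 1 library, on the y axis as log2(scaled units + 0.5) per gene length, with the mean and SD of the 6 libraries of each group. Adm, Edn1 and Nppb stand far higher in WT cells with agonist than in the 3 other groups, while Vegfa lies within a narrow band in all 4.

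In WT cells with agonist the same libraries were highest and lowest for 3 of the 4 members. WT agonist library 5 was the highest of its group for Adm (236), Edn1 (95.2) and Vegfa (76.7), and WT agonist library 4 was the lowest for the same genes (163, 70.5 and 61.2). Their deposited totals were the largest and the smallest of the group, 1197560 and 1085488 scaled units. Nppb followed another order, with its highest level of 16.4 in library 2 and its lowest of 7.45 in library 1. Under the same total per library, libraries 5 and 4 were still highest and lowest for Adm (197 and 150) and Edn1 (79.5 and 64.9). For Vegfa library 5 was still highest (64.1), and library 1 was lowest (55.8). The part of library totals in this order was not tested.

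The agonist comparison in KO cells used none of the libraries that chose the members, so here tests apply to Adm, Edn1 and Vegfa. Of these only Vegfa passed, and it fell: 1 of the 3 genes was called lower, where 4.64% of all 11557 rows were, and none was called higher, where 4.66% were. The count of called genes in KO cells was unstable to single libraries. It was 1075, but 284 without KO agonist library 1, 1851 without KO agonist library 2, 589, 429, 481 and 441 without KO agonist libraries 3 to 6 in turn, and 663 and 610 without KO vehicle libraries 3 and 5. In bulk RNA of this kind, less RNA per cell and fewer cells making it cannot be told apart.

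Vegfa in KO cells ranged from 40.3 to 47.3 scaled units with agonist (median 43.5) and from 47.4 to 60.3 under vehicle (median 53.2). Every agonist library lay below every vehicle library, a separation downward found for 1.97% of rows, though by a margin of less than 1 unit. The means were 43.7 ± 2.56 with agonist and 54.2 ± 4.87 under vehicle (SD, n = 6 each), so the agonist level was 80.7% of the vehicle level. The log2 change was −0.30 ± 0.06 (SE, adjusted p = 0.00981 in limma). Without each library in turn the adjusted p in limma lay between 0.00524 and 0.0344, and under the same total per library the change was −0.27 (adjusted p = 0.0165 in limma) with groups that overlapped, 42.6 to 52.7 with agonist and 50.2 to 62.6 under vehicle.

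**Figure D2:**
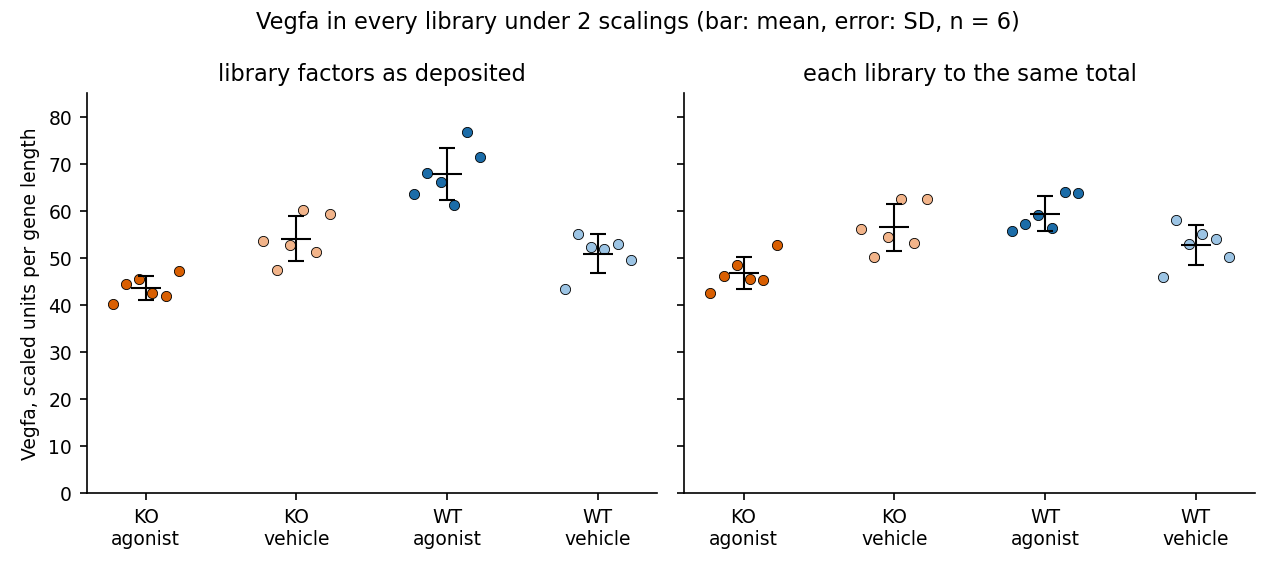
Vegfa in every library with the library factors as deposited (left) and under the same total per library (right), in scaled units with group mean and SD. On the left WT cells with agonist lie above WT cells under vehicle without overlap; on the right these groups overlap, with means of 59.4 and 52.8, while KO cells with agonist keep the lowest mean.

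Adm in KO cells ran from 4.14 to 7.57 scaled units with agonist (median 4.70) and from 3.84 to 8.20 under vehicle (median 6.52). All 6 agonist libraries fell inside the vehicle range. The log2 difference was −0.23 ± 0.16 (SE, adjusted p = 0.344 in limma), with a 95% interval of −0.56 to 0.10.

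Edn1 was at 9.10 to 10.8 scaled units with agonist (median 10.2) and 8.49 to 11.8 under vehicle (median 9.85) in KO cells, again with all 6 agonist libraries inside the vehicle range. Its log2 difference was 0.02 ± 0.07 (SE, adjusted p = 0.894 in limma), with a 95% interval of −0.13 to 0.16.

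Nppb was near detection in both KO groups, at 1 to 4 reads per library with agonist (median 2) and 3 to 9 under vehicle (median 3.5). In scaled units 4 of the 6 agonist libraries lay inside the vehicle range. Nppb passed the low-value filter, a mean of 1 scaled unit over all libraries, only through WT cells with agonist; both KO groups averaged less than that, so its values outside that group are a description with no test. The reads summed to 14 with agonist and 30 under vehicle, a factor-corrected ratio of 0.518 with a counting interval of 0.254 to 1.01. The fitted log2 difference was −0.46 ± 0.20 (SE), with a 95% interval of −0.88 to −0.04.

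Set side by side, the agonist effects in KO and WT cells on the log2 scale were −0.23 and 3.92 for Adm, 0.02 and 1.90 for Edn1, −0.46 and 4.54 for Nppb, and −0.30 and 0.41 for Vegfa. The differences, KO effect minus WT effect, were −4.15 ± 0.22 for Adm, −1.88 ± 0.10 for Edn1, −4.99 ± 0.28 for Nppb and −0.72 ± 0.09 for Vegfa (SE). They contain the contrast that chose the genes and carry no test. For Vegfa the direction turned: it stood lower with agonist in KO cells and higher with agonist in WT cells, and the difference was −0.44 under the same total per library. With agonist the KO level was 2.68% of the WT level for Adm, 12.3% for Edn1, 2.77% for Nppb and 64.3% for Vegfa.

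**Figure D3:**
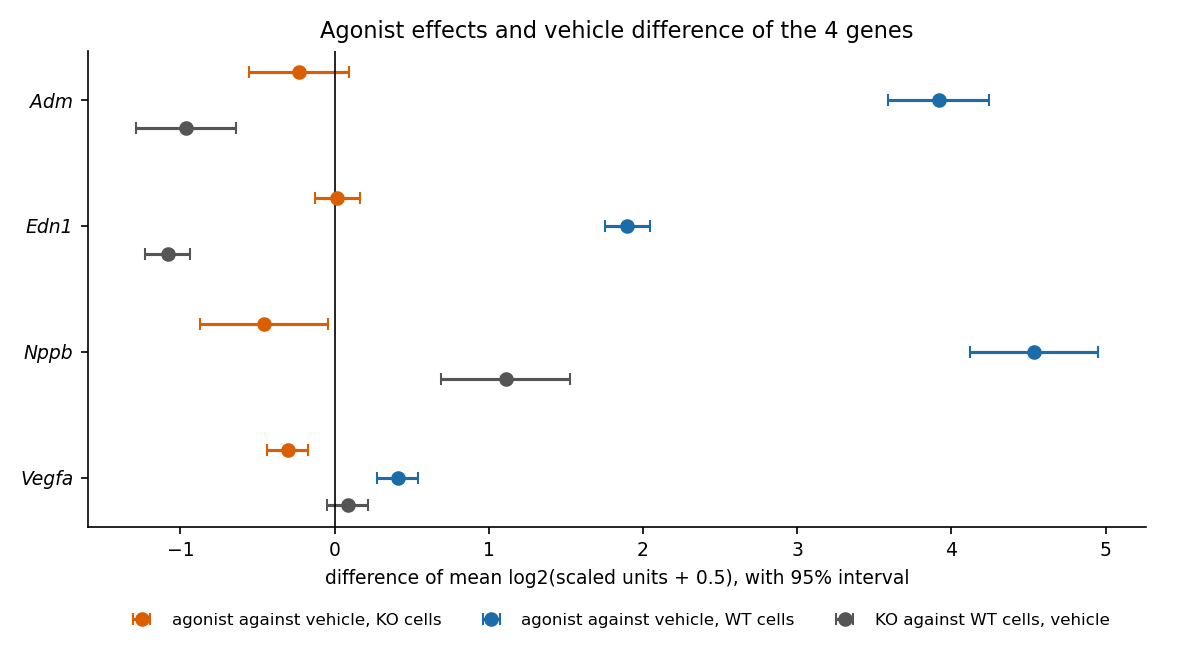
Log2 differences with 95% intervals for each gene: agonist against vehicle in KO cells, agonist against vehicle in WT cells, and KO against WT cells under vehicle. The KO agonist effects lie near 0 or slightly below it, the WT agonist effects run from 0.41 to 4.54, and the vehicle differences of Adm and Edn1 are close to −1. Nppb is shown as a description, with no test.

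Without agonist the KO cells already held less Adm and Edn1 than the WT cells, while Vegfa did not pass the test. Of these 3 genes, 2 were called lower in KO cells under vehicle, where 23.9% of all rows were, and none was called higher, where 23.9% were. Nppb, below the low-value filter in both groups, is given as a description. Separation without overlap was found for 14.1% of rows downward and for 13.2% upward, so calls of either kind were common in this comparison. It shares the WT vehicle libraries with the contrast that chose the members, and the KO vehicle libraries with the agonist effect in KO cells.

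Adm ran from 3.84 to 8.20 scaled units in KO cells under vehicle and from 9.03 to 15.5 in WT cells under vehicle. The groups came close but did not overlap. The means were 6.25 ± 1.59 and 12.5 ± 2.47 (SD, n = 6 each) in KO and WT cells, so KO cells held 49.9% of the WT level. The log2 change was −0.96 ± 0.16 (SE, adjusted p = 1.7e-05 in limma).

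Edn1 in KO cells under vehicle lay between 8.49 and 11.8 scaled units, against 19.4 to 23.5 in WT cells under vehicle. A wide gap separated the groups. The KO mean of 9.98 ± 1.09 was 46.1% of the WT mean of 21.6 ± 1.66 (SD, n = 6 each), a log2 change of −1.08 ± 0.07 (SE, adjusted p = 4.26e-12 in limma).

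Nppb reads were more numerous in KO cells. KO cells under vehicle held 3 to 9 reads per library, 30 in all, while WT cells under vehicle held 1 read in all. The factor-corrected ratio was 27.8, with a counting interval of 4.63 to 1136. The fitted log2 difference was 1.11 ± 0.20 (SE), and it was 2.57 with a pseudocount of 0.1 and 0.40 with a pseudocount of 2. All values on both sides are near detection, at 0.306 to 1.33 scaled units in KO cells and 0 to 0.175 in WT cells.

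Vegfa under vehicle stood at 54.2 ± 4.87 scaled units in KO cells and 50.9 ± 4.11 in WT cells (SD, n = 6 each), and 4 of the 6 KO libraries fell within the WT range. The log2 difference of 0.09 ± 0.06 (SE) did not pass (adjusted p = 0.273 in limma), with a 95% interval of −0.05 to 0.22.

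**Figure D4:**
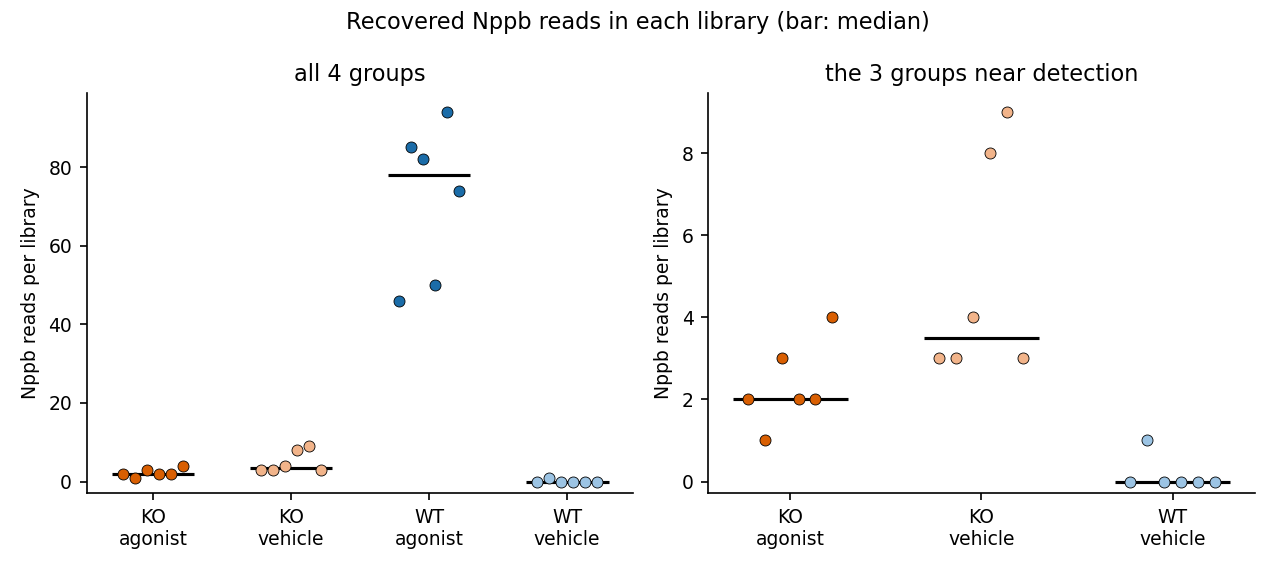
Recovered Nppb reads in each library, with the group median as a bar: all 4 groups on the left, and the 3 groups near detection on an enlarged axis on the right. WT cells with agonist hold 46 to 94 reads, the KO groups 1 to 9, and WT cells under vehicle 0 or 1.

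The order of levels differed between the genes. For Adm it was WT cells with agonist, WT cells under vehicle, KO cells under vehicle and KO cells with agonist, the last pair within each other's spread. For Edn1 the order was WT cells with agonist, WT cells under vehicle, then both KO groups within each other's spread. For Nppb it was WT cells with agonist, KO cells under vehicle, KO cells with agonist and WT cells under vehicle, the KO pair overlapping. For Vegfa, WT cells with agonist were highest and KO cells with agonist lowest, and the vehicle groups between them overlapped. Under vehicle the level of Vegfa was the highest of the 4 genes in both lines, while with agonist in WT cells Adm exceeded the others. Vegfa stood at the 71.0 percentile of the 11557 rows tested in WT cells with agonist and at the 64.8 percentile under vehicle.

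Genes with the most similar pattern were sought by the root mean square difference of centred log2 values over the 24 libraries, where 0 is an identical pattern. Adm was closest to Tnf (0.39), a cytokine gene, and next to Fosb, Itpkc, Adamts1 and Nr4a1 (0.40 to 0.47). Tnf averaged 12.4 scaled units in WT cells with agonist but only 0.321 in WT cells under vehicle. In KO cells it averaged 0.0669 with agonist and 0.0347 under vehicle. Its pattern outside WT cells with agonist therefore depends on the 0.5 added before the log. Fosb and Nr4a1 encode immediate early transcription factors. Edn1 was closest to Gprc5a (0.16), an orphan receptor gene, which averaged 2078 ± 264 scaled units with agonist and 506 ± 60.3 under vehicle in WT cells (SD, n = 6 each). Lcp1, Dusp10 and Tlr2 were also close (0.21 to 0.23). Nppb was closest to Fosl1 (0.30), which encodes an AP-1 subunit and averaged 11.6 ± 1.56 and 15.3 ± 2.64 scaled units in KO cells with agonist and under vehicle, and 180 ± 24.7 and 8.63 ± 1.32 in WT cells with agonist and under vehicle (SD, n = 6 each). Dusp2, Ifrd1, Ccn1 and Dusp5 came next (0.41 to 0.51). Vegfa was closest to Mat2a (0.09), which encodes the enzyme that makes S-adenosylmethionine, with Maco1, Zfp655 and Mier1 also close (0.10 to 0.11). Among the members the nearest pair was Adm and Edn1, at 0.91. The genes above were picked as the closest of all rows searched, so their smaller values do not show how alike the members are.

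The remaining genes of the adrenomedullin system changed in both directions in WT cells. Of 14 other genes of the system 8 were tested, and with agonist 2 rose and 3 fell (median log2 change 0.01, against −0.01 for all genes), or 2 rose and 5 fell under the same total. Adm2, a second ligand of the family, rose to 74.9 ± 9.65 scaled units with agonist, against 42.5 ± 4.44 under vehicle (SD, n = 6 each; log2 change 0.81 ± 0.08, adjusted p = 7.34e-09 in limma). In KO cells Adm2 fell to 35.4 ± 2.58 with agonist, against 45.8 ± 5.14 under vehicle (log2 change −0.36 ± 0.08, adjusted p = 0.0142 in limma), the only call among the 8 there.

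Among receptor components in WT cells, Ramp3 stood at 3.21 ± 1.25 scaled units with agonist and 1.06 ± 0.547 under vehicle (log2 change 1.26 ± 0.26). Ramp3 passed the low-value filter only through WT cells with agonist, so its values are a description, though its calls remain in the counts. Ramp2 fell to 3.06 ± 0.393, against 5.15 ± 1.44 (log2 change −0.63 ± 0.17, adjusted p = 0.00325 in limma). Ackr3, the scavenging receptor, fell to 6.41 ± 1.71, against 29.2 ± 4.79. Ramp1, at 30.1 ± 2.66 with agonist and 28.2 ± 1.18 under vehicle, did not pass as deposited (adjusted p = 0.244 in limma), and under the same total it was called in the other direction, lower with agonist (log2 change −0.15, adjusted p = 0.0359). Calcrl, the receptor that these accessory proteins serve, was not analysed here. Under vehicle, 3 of the 8 genes were higher in KO than in WT cells and 4 were lower, with Ramp1, Ramp2 and Ramp3 all among the lower (log2 changes −0.71, −0.99 and −0.73). Ramp3 averaged only 0.426 ± 0.312 scaled units in KO cells under vehicle, and its difference is a description. Mme, which encodes the peptidase neprilysin that degrades all 3 peptide families, was lower still, at 6.58 ± 1.30 scaled units in KO cells and 33.4 ± 7.09 in WT cells under vehicle (log2 change −2.25 ± 0.15, adjusted p = 7.61e-12 in limma).

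For the endothelin system no other ligand and neither receptor was analysed, so only processing and degradation could be followed. Of 5 genes tested in a list of 12, none rose and 2 fell with agonist in WT cells (median log2 change −0.09): Mme (log2 change −0.48 ± 0.15, adjusted p = 0.0082 in limma) and Ctsa, which encodes a lysosomal carboxypeptidase (−0.16 ± 0.06, adjusted p = 0.0185). All 5 were lower when each library was scaled to the same total. None of the 5 was called in KO cells. Ece2, an endothelin-converting enzyme gene, did not pass in WT cells (4.41 ± 0.537 scaled units with agonist, 4.74 ± 0.748 under vehicle, adjusted p = 0.477 in limma as deposited but 0.0069 under the same total).

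In the natriuretic peptide system 9 of 13 other genes were tested, and 1 rose and 2 fell with agonist in WT cells (median log2 change 0.00), or 1 rose and 5 fell under the same total. Prkg2, which encodes a cGMP-dependent kinase, rose to 17.7 ± 8.56 scaled units, against 4.47 ± 2.75 under vehicle (SD, n = 6 each; log2 change 1.89 ± 0.30, adjusted p = 7.35e-06 in limma). Npr3, the clearance receptor, fell to 15.0 ± 4.90, against 27.8 ± 3.94 (log2 change −0.92 ± 0.15, adjusted p = 1.29e-05 in limma). In KO cells Npr3 was also lower with agonist, at 22.9 ± 3.58 against 31.7 ± 1.88, a call at the edge of the threshold (adjusted p = 0.0496 in limma, 0.0613 under the same total). Npr1, the signalling receptor, was at 17.1 ± 2.95 with agonist and 17.8 ± 1.20 under vehicle in WT cells (adjusted p = 0.575 in limma as deposited, 0.012 and lower under the same total). Pde9a, a phosphodiesterase gene for cGMP, stood higher in KO cells under vehicle, at 3.71 ± 0.574 scaled units, than in WT cells under vehicle, at 0.711 ± 0.219 (log2 change 1.81 ± 0.14). Pde9a passed the low-value filter only through KO cells, so this difference is a description. It is still counted among the 4 genes of the list called higher there, with Mme called lower.

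Of the VEGF system 5 of 9 other genes were tested, and with agonist in WT cells Nrp1, Nrp2 and Flt4, which encode co-receptors and a receptor, rose while the ligand genes Vegfb and Vegfd fell (median log2 change 0.42). Vegfa itself, also a ligand gene, stood higher there. Vegfb stood at 74.7 ± 3.05 scaled units with agonist and 86.9 ± 3.15 under vehicle (log2 change −0.22 ± 0.04, adjusted p = 3.24e-05 in limma), and Vegfd at 0.433 ± 0.247 and 0.969 ± 0.187 (−0.69 ± 0.21). Vegfd passed the low-value filter only through KO cells, so its values in WT cells are a description. Nrp2 rose to 16.9 ± 3.08, against 8.53 ± 3.66 (1.02 ± 0.18), Flt4 to 4.28 ± 0.928, against 2.68 ± 1.40 (0.66 ± 0.18), and Nrp1 to 48.5 ± 4.48, against 36.1 ± 3.31 (0.42 ± 0.06), each past the threshold in limma under both scalings. None of the 5 was called in KO cells with agonist. Nrp1 was higher in KO than in WT cells under vehicle, at 57.5 ± 1.17 and 36.1 ± 3.31 scaled units (log2 change 0.67 ± 0.06, adjusted p = 1.22e-09 in limma). Kdr and Flt1 were not analysed here.

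**Figure D5:**
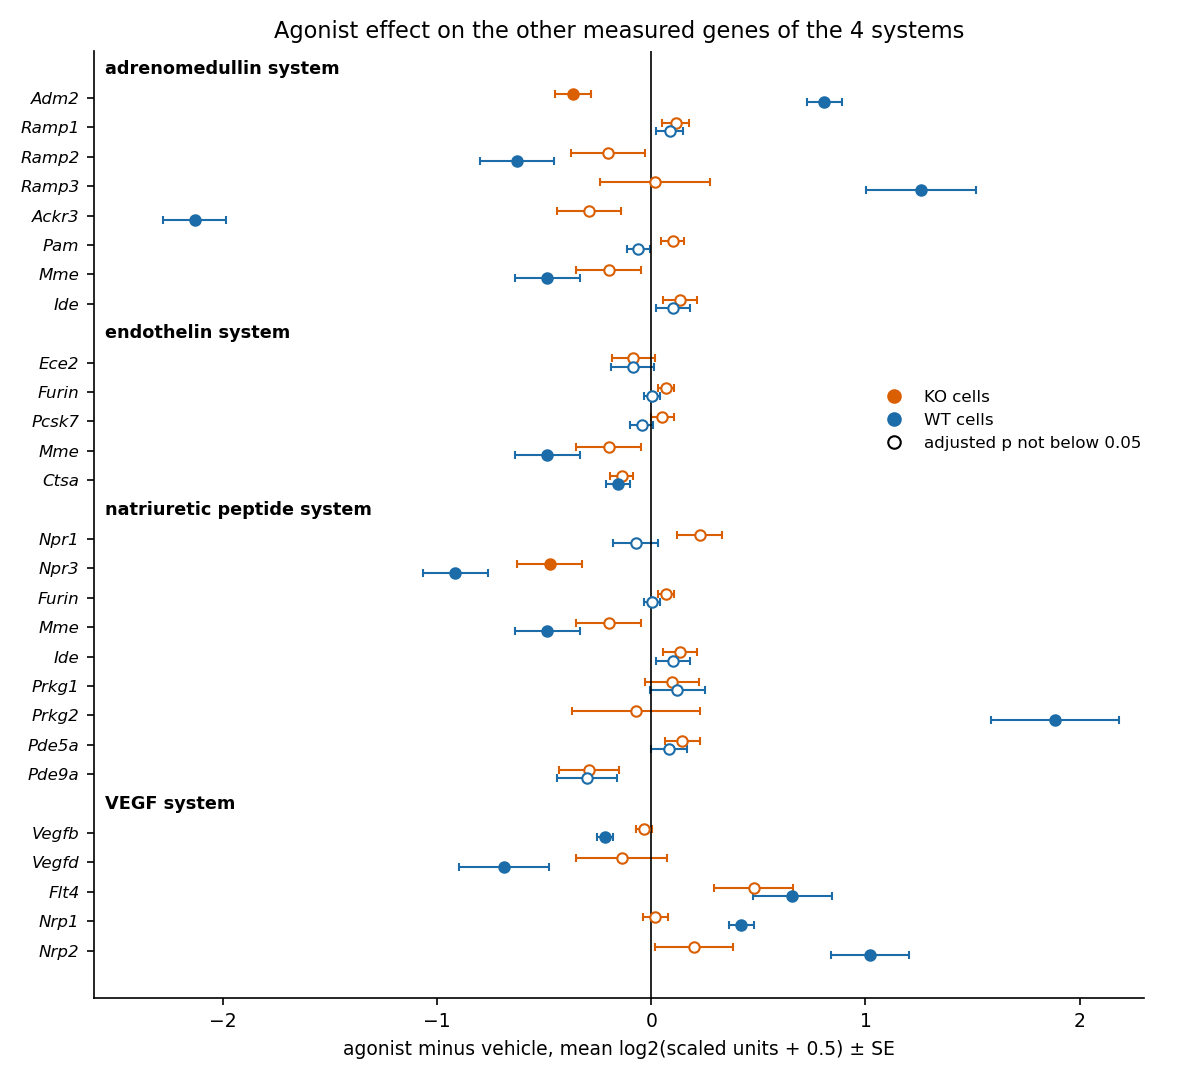
Agonist minus vehicle on the log2 scale (± SE) for the other tested genes of the 4 systems, in KO cells and in WT cells; filled points passed an adjusted p of 0.05 in limma, and Mme, Furin and Ide appear in more than 1 system. Only Adm2 and Npr3 are filled for KO cells, both to the left of 0. The filled WT points of Ramp3 and Vegfd are descriptions only.

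Other vasoactive and angiogenic signals gave the members a wider frame. Of 35 other vasoactive mediators 9 were tested; 4 rose and 2 fell with agonist in WT cells (median log2 change 0.32), or 3 and 3 under the same total. Ptgs2, which encodes the inducible cyclooxygenase, rose to 900 ± 131 scaled units in WT cells with agonist, against 80.9 ± 17.3 under vehicle, and Ptger4, a prostaglandin E2 receptor gene, to 261 ± 32.1, against 28.8 ± 5.28 (SD, n = 6 each; log2 changes 3.48 ± 0.13 and 3.17 ± 0.11, adjusted p = 3.52e-17 and 6.18e-18 in limma). Ptges3 also rose (0.50 ± 0.05, adjusted p = 2.5e-09), whereas the vasopressin V2 receptor gene Avpr2 fell to 54.5 ± 7.80, against 105 ± 14.5 (−0.94 ± 0.13, adjusted p = 6.88e-07). Ptges fell (−0.57 ± 0.17, adjusted p = 0.00512) and Ace was called higher as deposited but not under the same total (adjusted p = 0.0159 and 0.111). The thromboxane receptor gene Tbxa2r, at 2.16 ± 0.702 scaled units with agonist and 1.62 ± 0.482 under vehicle, Ptges2 and Pla2g4a did not pass as deposited. The 1 call among the 9 in KO cells was Ace, which encodes the angiotensin-converting enzyme. It stood at 0.750 ± 0.271 scaled units with agonist and 0.290 ± 0.113 under vehicle (log2 change 0.64 ± 0.18). Both KO groups averaged less than the low-value filter, which Ace passed only through WT cells, so this difference is a description.

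Of 24 other angiogenic factors 15 were tested; 6 rose and 4 fell with agonist in WT cells, or 5 and 8 under the same total (median log2 change −0.03 as deposited). Ccn1 (log2 change 3.66 ± 0.11), Adamts1 (3.55 ± 0.11), Hbegf (3.04 ± 0.12) and Thbs1 (2.85 ± 0.08) rose by far more than Vegfa did, with adjusted p from 4.24e-17 to 1.22e-19 in limma. Adamts1 and Thbs1 are known as inhibitors of angiogenesis and the other pair as promoters. Ccn2 (2.56 ± 0.12) and Sema3c (0.16 ± 0.05, adjusted p = 0.0112, or 0.105 under the same total) completed the genes that rose. Efna1 (−0.66 ± 0.03), Fgf1 (−0.55 ± 0.12) and Pdgfa (−0.31 ± 0.06) fell. Angpt2, which modulates vessel stability, fell in WT cells to 5.43 ± 1.58 scaled units, against 15.0 ± 4.22 under vehicle. In KO cells 2 of the 15 fell: Fgf1 (−0.41 ± 0.12, adjusted p = 0.0305 in limma) and Angpt2 (−0.60 ± 0.19, adjusted p = 0.0447, or 0.0503 under the same total).

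Adm and Vegfa are textbook targets of the hypoxia response, so its other genes were counted. Of 25 tested among 27, 8 rose and 4 fell with agonist in WT cells (median log2 change 0.05), or 5 rose and 10 fell under the same total. Of 17 targets, 7 rose and none fell, or 5 rose and 4 fell under the same total. Of 8 sensors and factors, 1 rose and 4 fell, or none rose and 6 fell under the same total. The sensor or factor gene that rose was Epas1, for the alpha subunit of a hypoxia-inducible factor (0.41 ± 0.11, adjusted p = 0.00182 in limma, 0.14 under the same total). Slc2a1, a glucose transporter gene (1.35 ± 0.08), Pfkfb3 (0.98 ± 0.08), Ddit4 (0.75 ± 0.11) and Ndrg1 (0.61 ± 0.09) rose under both scalings, while Hif1a (0.12 ± 0.07, adjusted p = 0.148 in limma), Pgk1 (0.03 ± 0.14, adjusted p = 0.881), Ldha (0.05 ± 0.12, adjusted p = 0.733) and Bnip3 (−0.03 ± 0.20, adjusted p = 0.914) did not pass. The last 4 genes were chosen for mention after their values were seen. In KO cells only Slc2a1 was called, and it fell (−0.25 ± 0.08, adjusted p = 0.0409). Under vehicle, 4 of the 25 were higher and 7 lower in KO than in WT cells, with Epas1 at 1.66 scaled units on average in KO cells and 6.15 in WT cells (log2 change −1.64 ± 0.11, adjusted p = 3.4e-12 in limma).

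Proteins that bind AU-rich elements are known to set the lifetime of short-lived mRNAs such as that of Vegfa. Of 7 tested among 8, 5 rose and none fell with agonist in WT cells (median log2 change 0.40), or 4 rose and 2 fell under the same total. The genes that rose as deposited were Elavl1 (0.51 ± 0.04), Hnrnpd (0.46 ± 0.04), Zfp36l2 (0.40 ± 0.06), Zfp36l1 (0.54 ± 0.08) and Tial1 (0.14 ± 0.05, which did not pass under the same total, adjusted p = 0.134 in limma). Those that fell under the same total were Khsrp (−0.14, adjusted p = 0.0452 in limma) and Tia1 (−0.20, adjusted p = 0.0436). In KO cells Khsrp alone was called (0.24 ± 0.05, adjusted p = 0.0104 in limma).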

How the data were processed

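Poly(A) RNA of 24 libraries was sequenced, and the authors deposited 1 table of normalised signal per gene. The submitters' processing notes name GRCm39 as the build and list STAR (2.7.8a), DESeq and DESeq2; the roles of these tools, and whether counting used strand, are not given in the sources used here. The deposited signal, multiplied by gene length, gave a count divided by a library factor and rounded to 0.1, and whole reads came back for at least 99.8% of values in each library (within 0.05 times the library factor plus 0.02 of a read). The signal was multiplied by 92.1 to give scaled units, a level per gene length whose library totals average 1e6.

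Since the values are not counts, the main test was limma 3.58.1 in R 4.3.3 on log2(scaled units + 0.5), with trended robust variances over all 24 libraries, on the 11557 of 12224 rows whose mean reached 1 in scaled units. Tests were two-sided, with Benjamini-Hochberg adjustment over these rows and a threshold of 0.05. 11498 rows carried a single gene name. The code was checked on simulated data. Intervals on reads are exact Poisson or binomial and cover counting error only. Alternatives were other pseudocounts and filters, the same total per library, recomputed median ratio scaling, limma's voom on recovered reads, plain variance moderation, separate fits per comparison, a block for the replicate number and each library left out in turn.

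The members and lists were chosen with earlier results of these data known. The text names the members, the targeted gene, the 5 genes of most similar pattern to each member (some are not reported here), every measured ligand and receptor of the members' systems and, from each list and contrast, up to 4 called genes by smallest adjusted p; further list genes were named after their values were seen. Replicate numbers did not pair libraries: over 36 same-numbered pairs the correlation of deviations ran from −0.31 to 0.49.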

Additional observations from a re-analysis of the deposited data

Results flagged for a closer look

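Nppb in WT vehicle library 2 stood at 0.175 scaled units while the 5 other WT vehicle libraries stood at 0, which put it far from the rest of its group; the value is 1 read. Of 16 combinations of member and group checked in this way, chance is expected to single out about 1 in 20 where values are continuous. With the 5 other libraries at 0, any read at all is singled out, so that rate does not apply here.

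The agonist effect on Vegfa in KO cells minus that in WT cells was −0.72 on the log2 scale. As deposited, all 6 KO agonist libraries lay below the KO vehicle libraries, and all 6 WT agonist libraries lay above the WT vehicle libraries. Under the same total per library, agonist and vehicle groups overlapped in KO cells and in WT cells. The difference was not tested, because the WT effect chose the gene.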

How the results depend on the processing

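Of the members' results under the alternatives, 692 were labelled the same and 19 moved in size. For Adm, Edn1 and Vegfa none crossed the threshold, and no called result changed direction. For the agonist effect in KO cells and KO against WT cells under vehicle, only the call and its direction were judged. Nppb was judged there in the same way, so its shifts in size are not among the 19. Its labels for these contrasts are among the 692, but they rest on tests not used for Nppb, so nothing is read from them. A change of sign without a call counted as the same. The Edn1 agonist effect in KO cells ran from −0.03 to 0.07 when each library was left out. With a pseudocount of 2 the KO against WT difference with agonist was −4.77 for Adm and −2.80 for Edn1. With the same total per library, Edn1 gave 1.66 for the WT effect, −1.61 for the KO minus WT effect and −2.68 for KO against WT with agonist, and Vegfa gave 0.17, −0.44 and −0.34 for the same. Nppb, at few reads, moved with the added constant by construction: the WT effect was 6.64 with 0.1, 2.76 with 2 and 7.12 with voom, the KO minus WT effect −7.39, −2.95 and −7.84, and KO against WT with agonist −4.82, −2.56 and −4.92. Of 45 list counts, 6 moved under the same total. Each count added genes called higher and lower, so a shift between directions alone did not count as moved. The hypoxia list in WT cells, with 8 higher and 4 lower as deposited and 5 and 10 under the same total, was not among the 6. Genes called in KO cells ranged from 284 to 1851 when each library was left out, against 1075; the cause was not tested. Replicate numbers did not pair the libraries, and with the replicate block Vegfa in KO cells gave −0.30 (adjusted p = 0.00944 in limma) and 1122 genes were called. Counting only the 250 bases before the start, Edn1 held 0 matches to the hypoxia core and 0 to GATA. Nppb was removed by the filter at a mean of 5 units and has no value there. Depth limits Nppb, at 0 to 9 reads per library outside WT cells with agonist.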
